A study of Danio rerio with 5 samples.

Results

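Forkhead (Fox) genes were examined in zebrafish embryos at the mid-blastula transition, around which the embryo's own genome is switched on, and shortly after it. They were taken as the genes of the deposited table whose symbol begins with fox, a class letter and a number, without foxa2, foxa3 and foxh1, and 42 of the 22656 genes of the table met this rule. Embryos of the Tübingen strain were stripped of their chorion and yolk, and total RNA was taken from the rest of the embryo. The earlier stage is the sphere stage, 4 hours after fertilisation (hpf), here named MBT after the mid-blastula transition. The later stage, post-MBT, is 30% epiboly at 5.3 hpf. There were 3 MBT libraries (A, B and C) and 2 post-MBT libraries (A and B), all from untreated embryos, and the labels do not say how many embryos or clutches went into each. Since separate clutches are not stated, the p-values measure only how far these libraries vary, which may be technical.

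Forkhead proteins bind DNA through a shared winged-helix domain and are grouped into lettered classes. Some classes are active in nearly every cell: FoxM1 drives mitotic genes, FoxO factors are held in the cytoplasm by insulin and Akt signalling, and FoxK and FoxN2/FoxN3 factors act mainly as repressors. Others mark tissues as they form, such as FoxD in ectoderm and neural crest, FoxC in somites, FoxG in the forebrain, FoxE in lens and thyroid, and FoxJ1 in cells that carry motile cilia. In the early embryo, RNA of the first kind can be left in the egg by the mother, while RNA of tissue genes usually appears only after zygotic transcription begins.

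Each library held 2488983 to 3701401 counts over genes, of which the mitochondrial genome gave 43.0 to 50.6% at the MBT and 51.3 and 51.5% post-MBT. Without mitochondrial genes 6 forkhead genes were called higher and 7 lower, as with them. Of all 11822 genes tested in that setting, 3762 were higher and 3744 lower. The blastoderm marker genes fixed for this work were all tested (9 of 9), with 7 higher and 2 lower post-MBT. Of 4 tested germ cell markers 0 were higher and 2 lower. Of 8 table genes that mark differentiated tissues none had enough counts for a test, with at most 10 counts in any library. Summed levels of enveloping layer markers went from a range of 109 to 142 to a range of 973 to 994 CPM (counts per 1000000 counts of a library), and 7 of 7 tested rose. Those of yolk syncytial layer markers went from 14.9 to 18.1 to 72.1 to 76.9 CPM, with 4 of 5 tested members higher and mxtx2 lower (log2 fold change -0.57). The part of these tissues in the forkhead results was not tested. In RNA from embryos without chorion and yolk, not split by cell type, fewer cells of a type and less RNA per cell cannot be told apart. Levels are CPM on library sizes scaled by TMM factors, given as mean ± SD (n = 3 at the MBT, n = 2 post-MBT). A positive log2 fold change stands for a higher post-MBT level and is given ± SE, with adjusted p from edgeR's quasi-likelihood test, and a gene was called at an adjusted p under 0.05.

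Of the 42 forkhead genes, 20 had enough counts to be tested, 19 were near 0 in both stages (at most 5 counts in each library), and 3 (foxc1a, foxd1l and foxo1a) lay between. Of these 20, 6 were called as rising, 7 as falling and 7 not at all. The number that fell was 5 with DESeq2 size factors and with upper-quartile factors, 3 with the DESeq2 Wald test and 3 without MBT C. Of all tested genes 3813 of 12007 fell in the main test, 3663 with DESeq2 size factors and 3624 with upper-quartile factors. With the DESeq2 Wald test 2497 of 15628 fell, and without MBT C 3644 of 11862. The called share of 65.0% compares with 62.8% of all 12007 tested genes, of which 31.0% rose and 31.8% fell, so the family as a whole was called about as often as other genes. Changes of at least 2-fold were called for 5 risers and 3 fallers, against 16.0% and 18.6% of all tested genes. The libraries of the stages did not overlap in 14 of the 20 (70.0%), against 73.9% of all tested genes. The median log2 fold change was -0.15 over the tested forkhead genes and -0.04 over all tested genes. Scaling by library totals instead lowered the median of all tested genes, which dropped by 0.41, and 5 forkhead genes rose and 10 fell, where 2173 of all 12007 tested genes rose and 5574 fell.

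**Figure D1:**
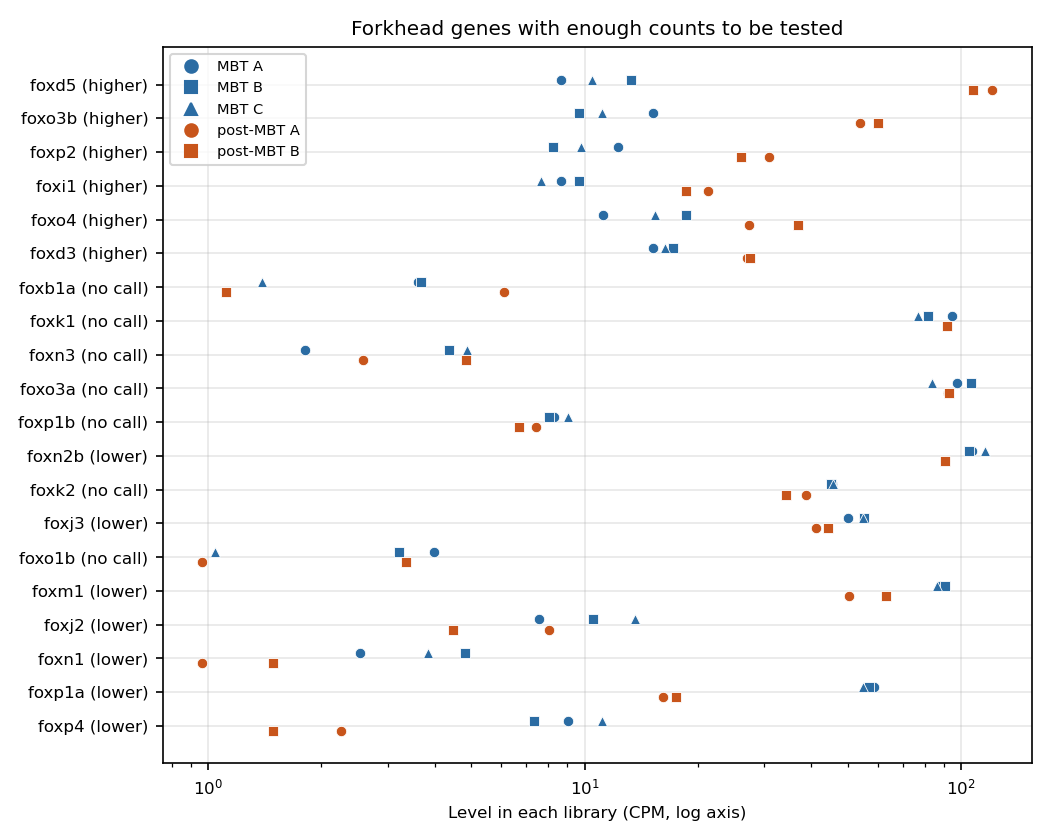
Level of each tested forkhead gene in each library (CPM, log axis), with MBT libraries in blue and post-MBT libraries in orange and the call beside each name. The post-MBT points of foxd5 lie at 107 and 121 CPM, to the right of all 3 MBT points at 8.66 to 13.3 CPM, while those of foxp1a lie to the left at 16.1 and 17.5 CPM.

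Among the 20 tested genes the largest rise was that of foxd5 (chromosome 8, 30443713 to 30444864 on D_rerio_Sep_2014), a FoxD factor known in frog embryos for holding neural ectoderm in an immature state. It had 24, 58 and 30 counts in MBT A, B and C, which are 8.66, 13.3 and 10.5 CPM. Post-MBT A and B held 376 and 289 counts, or 121 and 107 CPM. Both post-MBT libraries were far above every MBT library. The mean level went from 10.8 ± 2.34 to 114 ± 9.65 CPM, 10.6-fold higher, with a log2 fold change of 3.36 ± 0.15 (adjusted p = 8.08e-34). Per kilobase of exon, foxd5 went from place 8 of the 42 genes at the MBT (9.38 ± 2.03 CPM per kb) to place 1 post-MBT (99.2 ± 8.38 CPM per kb). The next gene post-MBT, foxk1, stood at 37.7 ± 0.106 CPM per kb.

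Its class mate foxd3 (chromosome 6, 32105118 to 32106881), known for its part in neural crest formation and in keeping stem cells undifferentiated, rose by a smaller fold. It had 42, 75 and 47 counts at the MBT and 84 and 74 post-MBT. The levels were 15.2, 17.2 and 16.4 CPM at the MBT and 27.0 and 27.5 CPM post-MBT, with no overlap. The log2 fold change was 0.74 ± 0.19 (adjusted p = 0.000612). With library totals it was 0.32 and not called (adjusted p = 0.184, the highest of its alternatives, whose lowest was 0.000285). Counted within each library, which needs no scaling between libraries, there were 0.571, 0.773 and 0.638 counts of foxd5 per count of foxd3 in MBT A, B and C. After the MBT there were 4.48 and 3.91, so the order of the 2 genes by counts, not corrected for gene length, turned round. Per kilobase of exon they were about level at the MBT, with foxd5 at 9.38 ± 2.03 and foxd3 at 9.21 ± 0.585 CPM. Post-MBT foxd5 was higher, at 99.2 ± 8.38 against 15.5 ± 0.184 CPM per kb. The ratio of counts went from 0.661 ± 0.103 to 4.19 ± 0.404. Its 2-sided exact permutation p was 0.1, the smallest that 3 against 2 libraries allow. The gene pairs of these ratios, here and below, were chosen after their values were seen, so their p-values are no independent support for a change. The third FoxD gene above the near-0 limit, foxd1l, had 0, 5 and 2 counts at the MBT and 7 and 1 post-MBT, too few for a test. Its model overlaps btf3 on the other strand, which held 42 to 113 counts per library, and the counts carry no strand.

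Of the tissue genes outside FoxD, foxi1 rose and foxc1a appeared. The FoxI gene foxi1 (chromosome 12, 43916243 to 43917947) is needed for the ear placode and pharyngeal arches. It had 24, 42 and 22 counts at the MBT and 66 and 50 post-MBT. The mean level went up from 8.65 ± 0.986 to 19.9 ± 1.89 CPM without overlap (log2 fold change 1.18 ± 0.23, adjusted p = 9.05e-06). The FoxC gene foxc1a (chromosome 2, 814507 to 816686), a regulator of somite mesoderm, had 1, 0 and 0 counts at the MBT and 11 and 16 post-MBT. It missed the count filter of the main test. The ratio of its summed counts, each divided by the summed TMM-scaled library sizes of its stage, was 46.6 (95% exact counting interval 7.68 to 1907). Without the filter its log2 fold change was 5.04 ± 0.89 (adjusted p = 9.95e-08), and DESeq2 called it too (adjusted p = 0.000953). Its duplicate foxc1b had a single count, in MBT B. The neural gene foxb1a was measured but not called. It had 10, 16 and 4 counts at the MBT and 19 and 3 post-MBT, and the post-MBT libraries lay on opposite sides of the MBT range. Its log2 fold change was 0.33 (adjusted p = 0.568) and turned to -1.38 without post-MBT A.

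The FoxO genes, whose products switch on cell-cycle arrest, stress and autophagy genes when insulin signalling is low, did not move together. The gene foxo3b (chromosome 20, 32383904 to 32429857) had 42, 42 and 32 counts at the MBT and 167 and 162 post-MBT. The mean level rose 4.76-fold, starting at 12 ± 2.85 CPM and reaching 57.0 ± 4.55 CPM (log2 fold change 2.28 ± 0.18, adjusted p = 6.40e-20). Its duplicate foxo3a (chromosome 17, 6635771 to 6653555) had 270, 462 and 240 counts and then 286 and 250. At 95.7 ± 11.3 and 92.5 ± 0.590 CPM its libraries overlapped, and the log2 fold change of -0.06 ± 0.11 was not called (adjusted p = 0.641). With library totals it was -0.47 and called (adjusted p = 0.00103, with alternatives up to 0.922). For each count of foxo3a there were 0.156, 0.0909 and 0.133 counts of foxo3b in the MBT libraries and 0.584 and 0.648 post-MBT. That ratio rose 4.87-fold, with an exact permutation p of 0.1, the smallest possible. Even so, foxo3a held more counts than foxo3b in all 5 libraries. Per kilobase the duplicates were at 16.9 ± 2.0 and 2.65 ± 0.631 CPM at the MBT and at 16.4 ± 0.104 and 12.6 ± 1.0 CPM post-MBT.

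The related foxo4 (chromosome 14, 30568272 to 30577614) had 31, 81 and 44 counts at the MBT and 85 and 99 post-MBT. It stood at 15.0 ± 3.71 CPM and then at 32.1 ± 6.67 CPM (log2 fold change 1.04 ± 0.19, adjusted p = 3.02e-06), and the call was a rise. Its model overlaps wu:fc26g07 on the other strand, which held 580 to 1053 counts per library and fell slightly (log2 fold change -0.20 ± 0.08, adjusted p = 0.0304), and reads of the overlap cannot be assigned to either gene. The FoxO1 genes were low: foxo1b held 3 to 14 counts per library with no call (-0.42 ± 0.58, adjusted p = 0.539), and foxo1a had 3, 4 and 0 counts and then 6 and 0. The direction of foxo1b turned without post-MBT A, to 0.26.

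FoxP genes moved in opposite directions. They encode repressors that pair with each other through a leucine zipper, and several act in the nervous system, heart and lung later on. The gene foxp1a (chromosome 23, 10703039 to 10787772) had 163, 248 and 157 counts at the MBT and 50 and 47 post-MBT. The MBT libraries lay at 58.8, 56.9 and 54.7 CPM and the post-MBT libraries at 16.1 and 17.5 CPM. The later mean was 3.38-fold lower (log2 fold change -1.76 ± 0.16, adjusted p = 7.06e-16). The fall of foxp4 (chromosome 11, 21749690 to 21933828) was steeper but rested on fewer counts, 25, 32 and 32 at the MBT and 7 and 4 post-MBT. Its log2 fold change was -2.22 ± 0.42 (adjusted p = 4.34e-06). The count filter was passed only through the MBT libraries, where foxp4 was higher. In contrast foxp2 (chromosome 4, 6414782 to 6630967) had 34, 36 and 28 counts at the MBT and 96 and 70 post-MBT. The rise, from 10.1 ± 2.03 CPM to 28.5 ± 3.46 CPM, had a log2 fold change of 1.53 ± 0.21 with adjusted p = 2.27e-09.

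The order of foxp1a and foxp2 turned round by counts as well. It also did so per kilobase of exon, from 16.7 ± 0.605 and 3.83 ± 0.769 CPM at the MBT to 4.92 ± 0.284 and 10.8 ± 1.31 CPM post-MBT. There were 0.209, 0.145 and 0.178 counts of foxp2 per count of foxp1a at the MBT and 1.92 and 1.49 post-MBT, a 9.61-fold increase (exact permutation p = 0.1, the smallest possible). The duplicate of foxp1a, foxp1b, was not called (-0.25 ± 0.30, adjusted p = 0.481) and stayed at 6.69 to 9.06 CPM in every library. Accordingly, foxp1a went from 6.74 ± 0.605 to 2.39 ± 0.309 counts per count of foxp1b (exact permutation p = 0.1). The FoxP3 genes foxp3a and foxp3b, whose mammalian counterpart marks regulatory T cells, each had 1 count, in post-MBT A.

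**Figure D2:**
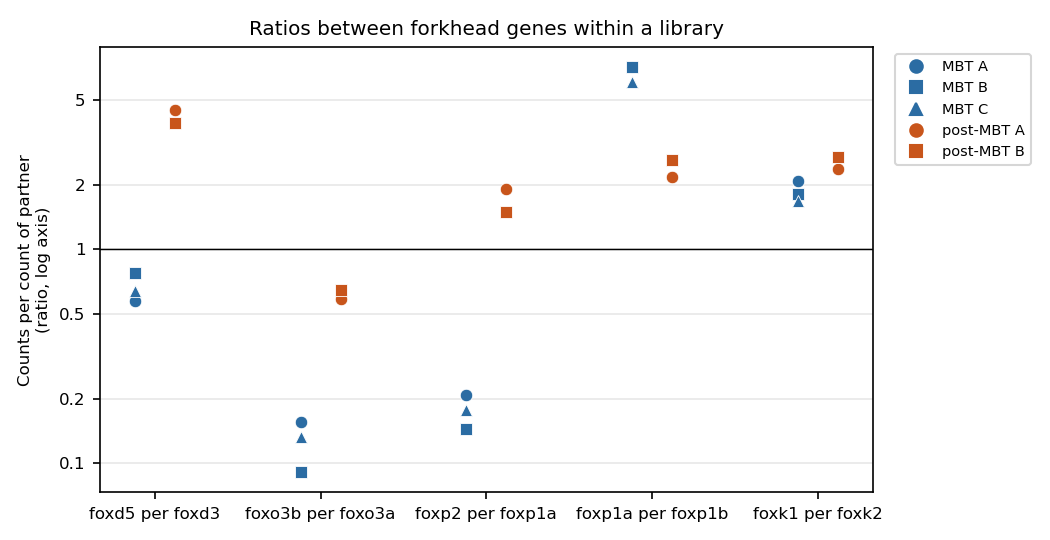
Counts of one forkhead gene per count of another in the same library (log axis), with MBT libraries in blue and post-MBT libraries in orange. Counts are not corrected for gene length. The foxd5 to foxd3 and foxp2 to foxp1a ratios of counts cross 1 between the stages, while foxo3b stays below foxo3a in every library.

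The cell-division gene foxm1 (chromosome 4, 5799394 to 5822955) fell. It had 243, 395 and 248 counts at the MBT, or 87.7, 90.6 and 86.4 CPM. Post-MBT there were 156 and 170 counts, or 50.2 and 63.2 CPM, below every MBT library. The log2 fold change was -0.65 ± 0.12 (adjusted p = 2.02e-06). The calls of foxm1, foxp1a and foxp4 held with each other scaling, filter, test and set of libraries that gave a value. At a change of at least 2-fold foxm1 was not called.

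Falls that did not hold in every alternative were called for 4 further genes. The FoxN2 gene foxn2b, the most abundant of the 42 genes by CPM at the MBT, fell from 109 ± 5.67 to 90.5 ± 0.339 CPM (log2 fold change -0.27 ± 0.10, adjusted p = 0.0202). The widely expressed foxj3 fell from 53.3 ± 2.73 to 42.7 ± 2.13 CPM (-0.33 ± 0.13, adjusted p = 0.0301), and foxj2 fell from 10.6 ± 3.0 to 6.25 ± 2.54 CPM with overlapping libraries (-0.73 ± 0.31, adjusted p = 0.0331). The gene foxn1, known for its role in the thymus epithelium, had 7, 21 and 11 counts at the MBT and 3 and 4 post-MBT (-1.64 ± 0.59, adjusted p = 0.0121). The DESeq2 Wald test called none of these 4, and with DESeq2 size factors or upper-quartile factors foxn2b and foxj3 were not called. Leaving out a library also ended calls: foxn2b and foxj3 lost theirs without MBT C (-0.22 and -0.30), without post-MBT A (-0.27 and -0.27) and without post-MBT B (-0.26 and -0.37), foxj2 without MBT B (-0.75), MBT C (-0.54) or post-MBT B (-0.39), and foxn1 without post-MBT A (-1.35). Without MBT B or MBT C, foxn1 was not tested. It passed the count filter only through MBT libraries, the stage where it was higher.

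The FoxK genes, broadly expressed repressors linked to metabolism and autophagy, were abundant and neither was called. By level per kilobase foxk1 came at place 1 at the MBT and at place 2 post-MBT, with 262, 356 and 221 counts and then 284 and 247. Its log2 fold change was 0.12 ± 0.11 (adjusted p = 0.326) on the TMM scale. It turned to -0.29 with library totals, where it was called (adjusted p = 0.0466, the lowest of its alternatives, whose highest was 0.613). Its relative foxk2 was at 45.4 ± 0.345 CPM and then 36.4 ± 3.14 CPM, without overlap, and just missed the threshold (-0.31 ± 0.14, adjusted p = 0.0530). It was called with no filter, with a minimum mean of 50 counts and with library totals (-0.35, -0.36 and -0.72). The last tested gene, the checkpoint repressor foxn3, had 5, 19 and 14 counts and then 8 and 13, with a log2 fold change of -0.05 ± 0.46 (adjusted p = 0.926) that turned to 0.36 without post-MBT A.

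**Figure D3:**
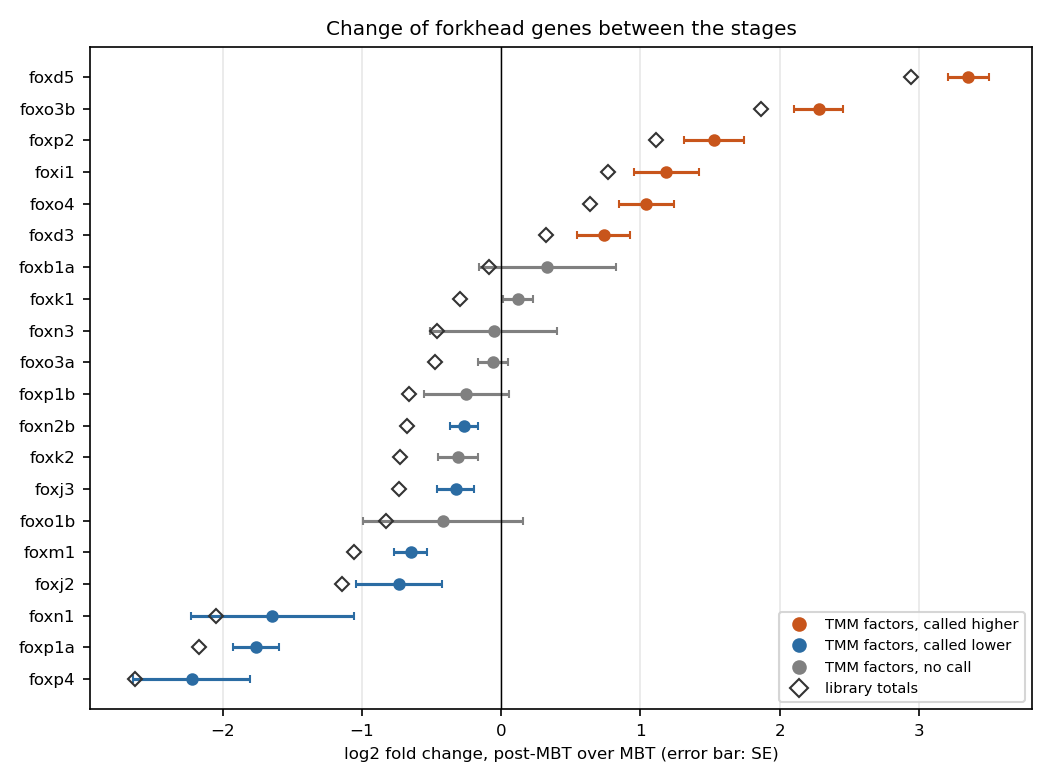
Log2 fold change (post-MBT over MBT, error bar SE) of the 20 tested forkhead genes with TMM factors (filled points, orange called higher, blue called lower, grey no call) and with library totals (open diamonds). The order of the genes runs from foxp4 at -2.22 to foxd5 at 3.36, and the diamonds lie to the left of the points for every gene.

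The makeup of forkhead RNA differed between the stages, and shares within a library do not depend on scaling between libraries. The FoxD class took 3.66, 4.77 and 4.32% of the counts of the 42 genes in MBT A, B and C and 20.3 and 18.2% in post-MBT A and B. Most of the later FoxD counts came from foxd5, with 376 of 469 in post-MBT A and 289 of 364 in post-MBT B. The FoxO share was 19.8, 20.8 and 17.5% at the MBT and 23.6 and 25.9% after it. FoxP genes went from 13.6, 12.1 and 13.3% to 7.69 and 6.93%, and FoxM from 13.5, 13.6 and 13.6% to 6.74 and 8.48%. In each of these classes the stages did not overlap. The FoxK share changed from 19.9 ± 1.35 to 17.2 ± 0.390%, FoxN from 17.9 ± 1.42 to 12.8 ± 0.216% and FoxJ from 9.90 ± 0.965 to 6.85 ± 0.0929%. FoxI went from 1.35 ± 0.0971 to 2.67 ± 0.253%. The stages did not overlap in FoxK, FoxN, FoxJ and FoxI either. As shares add up to a whole, a rise of FoxD lowers the others, and long genes weigh more than short ones. The 42 genes together held 1805, 2896 and 1828 counts at the MBT and 2314 and 2005 post-MBT, or 651, 664 and 637 CPM and then 745 and 745 CPM. Within this sum foxd5 alone went from a mean of 10.8 to 114 CPM.

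**Figure D4:**
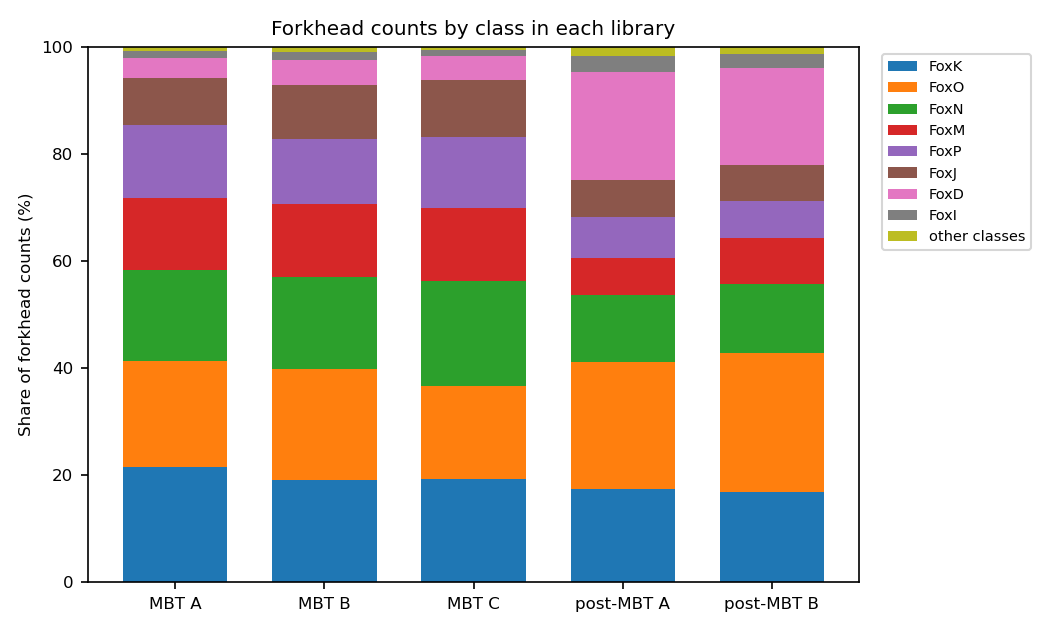
Share of the counts of the 42 forkhead genes taken by each class in each library (stacked bars, percent, linear axis from 0). FoxD (pink) widens from 3.66 to 4.77% in the MBT libraries to 18.2 and 20.3% in the post-MBT libraries, and FoxM (red) and FoxP (purple) narrow.

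The 19 forkhead genes near 0 in both stages had at most 4 counts in any library. They are foxa1, foxb1b, foxb2, foxc1b, foxd1, foxe1, foxe3, foxf2b, foxg1a, foxg1c, foxi3b, foxj1a, foxj1b, foxl1, foxn4, foxp3a, foxp3b, foxq1a and foxq1b. Together they had 26 counts in the 3 MBT libraries and 35 in the 2 post-MBT libraries, and 10 of them had a single count over all 5 libraries. They make up 45.2% of the family, where 35.1% of all genes of the table met the same limit. A count of 0 allows up to 3 counts, or 0.688 to 1.11 CPM depending on the library, so in a library without a count a gene was not detectable above that level. The highest level among these genes was that of foxj1a in post-MBT B, 1.49 CPM. In 7 of them no MBT library had a count, and in 6 no post-MBT library had one.

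Most of these genes are known from tissues that form later. The forebrain gene foxg1a had a single count in MBT C, the lens gene foxe3 a single count in post-MBT A, and the retina gene foxn4 a single count in MBT C. The thyroid gene foxe1 had no MBT count and 2 and 3 counts post-MBT. Without the count filter it was called higher (edgeR, adjusted p = 0.0485), and DESeq2 gave it no adjusted p. The ionocyte gene foxi3b had a single count in MBT C. The cilium regulators foxj1a and foxj1b had 0, 3 and 1 and then 4 and 4 counts, and 0, 2 and 0 and then 3 and 1 counts. A further 8 forkhead genes (foxf1, foxf2a, foxg1b, foxg1d, foxi2, foxi3a, foxl2 and foxq2) are named in the authors' list of genes with under 1 count.

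Some forkhead genes lie next to each other in the genome. On chromosome 2, foxc1a and foxq1a are 31726 bp apart, and foxq1a had a single count in MBT C and a single count in post-MBT A while foxc1a appeared. On chromosome 20, foxq1b, foxf2b and foxc1b lie in a row with gaps of 4650 and 9646 bp, and all 3 were near 0. On chromosome 8, foxe3 and foxd1 are 4051 bp apart and were near 0 as well.

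Gene structure differed along with these groups. Of the 42 genes 13 have models with a single exon, against 2.82% of all genes of the table, and 9 of these 13 are near 0. The risers foxd5 and foxd3 and the appearing foxc1a have single-exon models, and none of the 7 fallers has one. The median genomic span was 5554 bp for the 6 risers, 35882 bp for the 7 fallers and 30903 bp for the 7 tested genes without a call. Over all tested genes with single-exon models the median log2 fold change was 0.90, against -0.04 over all tested genes. The part of gene structure in the changes was not tested. In the authors' deposited table the comparison of exons within a gene is listed at 0 for each of the 42 genes, where 815 genes of the table have another value.

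The authors' deposited table gives its own DESeq2 comparison of the stages, as a log2 ratio of 4 over 5.3 hpf. By its score 7 forkhead genes were higher at 5.3 hpf and 3 higher at 4 hpf at an adjusted p under 0.05. The 7 include foxc1a, which was not tested in the main fit here. The share of all genes past that score was not counted, so these numbers show no trait of the family. In the authors' deposited table the ratio was -3.31 for foxd5, -3.0 for foxc1a, -2.21 for foxo3b, 1.71 for foxp1a and 1.92 for foxp4.

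The 3 forkhead genes left out by name all rose. The endoderm genes foxa2 and foxa3 rose by log2 fold changes of 3.94 ± 0.37 and 3.66 ± 0.13, and foxh1, the DNA-binding partner of Nodal-activated Smads, by 0.76 ± 0.07. At 76.6 ± 1.78 and 130 ± 2.93 CPM per kb, foxh1 lay above all 42 genes in both stages. A further 5 genes of the table, named otherwise there, have a forkhead name in RefSeq, and none had more than 6 counts in a library.

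Partner genes were taken from roles known mainly in mammals. The genes that act with FoxO were followed as a list of regulators: insulin receptors, PI3K and Akt kinases, 14-3-3 proteins that hold FoxO in the cytoplasm, FoxO-binding cofactors and others. Of 40 listed genes with counts, 35 were tested, and 16 rose, 14 fell and 5 had no call, with a median log2 fold change of -0.01. That is 45.7% higher and 40.0% lower, where 31.0% and 31.8% of all tested genes were. With library totals 6 rose and 19 fell, where 2173 of all 12007 tested genes rose and 5574 fell. Among the members with the smallest adjusted p, these fell: the PI3K regulatory subunit gene pik3r3b from 71.7 ± 5.90 to 10.6 ± 2.83 CPM, the insulin receptor gene insra from 113 ± 3.06 to 32.5 ± 5.98 CPM, and the acetyltransferase gene crebbpa from 138 ± 10.7 to 57.8 ± 2.43 CPM. Other falls were those of insrb, igf1rb, pik3cd, pik3r3a, pdpk1b, akt2l, akt3a, sgk1 and sgk3, and the falls ranged from -2.74 to -0.51 on the log2 scale. The rises were those of the 14-3-3 genes ywhaba, ywhabb, ywhae1, ywhae2, ywhaqb and ywhaz, the insulin-signalling genes igf1ra, irs1, pik3r2 and akt2, the kinase genes mapk8a and mapk8b, and crebbpb, ep300b, usp7 and skp2. The 14-3-3 genes ywhah and ywhaqa had no call.

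Known FoxO targets also went both ways. Among 24 tested genes there were 8 rises, 5 falls and 11 without a call, with a median log2 fold change of 0.17. The shares of 33.3% higher and 20.8% lower compare with 31.0% and 31.8% of all tested genes. The stress-response gene sesn3 rose from 3.85 ± 1.99 to 72.9 ± 0.660 CPM, the autophagosome gene map1lc3b from 42.4 ± 1.49 to 153 ± 18.4 CPM, the thioredoxin inhibitor gene txnipa from 12.3 ± 2.52 to 59.9 ± 6.86 CPM and the cell-cycle repressor gene rbl2 from 1.82 ± 1.62 to 12.7 ± 2.13 CPM. The falls were sesn2, bcl6ab, fbxo32, klf2a and gabarapl2, between -1.90 and -0.88. With library totals 10 fell, where 5574 of all 12007 tested genes fell, and 8 fell without MBT A, where 3743 of 11778 did.

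The list named FoxM1 targets here holds mostly mitotic genes known as such, and also some transcription regulators of the cell cycle. Its member skp2 is in the list of FoxO regulators as well. Of 47 tested genes of this list 20 rose, 13 fell and 14 had no call (median log2 fold change 0.13), while foxm1 itself fell. These are 42.6% and 27.7%, against 31.0% and 31.8% of all tested genes. With library totals 6 rose and 21 fell, where 2173 of all 12007 tested genes rose and 5574 fell. The phosphatase gene cdc25b rose from 382 ± 20.8 to 793 ± 34.0 CPM, the kinetochore gene cenpf from 232 ± 23.0 to 448 ± 31.9 CPM and the checkpoint gene bub1bb from 44.3 ± 4.97 to 87.9 ± 8.66 CPM, and the kinesin gene kif20ba fell from 99.1 ± 9.90 to 39.6 ± 1.84 CPM. The other falls were those of ccnb1, ccnb2, plk1, aurka, cenpe, birc5b, kif2c, kif4, nek2, ect2, prc1b and hmmr, and the falls ranged from -2.91 to -0.20. The value of -2.91 is that of birc5b, with 12, 26 and 17 counts at the MBT and 1 and 3 post-MBT. It passed the count filter only through MBT libraries, the stage where it was higher.

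Motile cilium genes known as FoxJ1 targets were mostly too low to test, as foxj1a and foxj1b were. Of 47 listed genes with counts, 13 were tested, where 12007 of all 22656 genes of the table were. Among these 13, 3 rose, 2 fell and 8 had no call (median log2 fold change 0.17). That is 23.1% higher and 15.4% lower, against 31.0% and 31.8% of all tested genes. The rises were mns1, from 6.75 ± 0.968 to 18.7 ± 1.76 CPM, and the dynein genes dnai2a, from 0.585 ± 0.723 to 5.39 ± 0.790 CPM, and dnai1, from 4.61 ± 0.666 to 8.73 ± 1.31 CPM. The ciliary transcription factor genes rfx2 and rfx3 fell by 0.38 and 0.61 on the log2 scale, and DESeq2 called neither. Leaving out MBT B, MBT C, post-MBT A or post-MBT B left 1 fall each. All 4 medians lie close to that of all tested genes, -0.04.

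**Figure D5:**
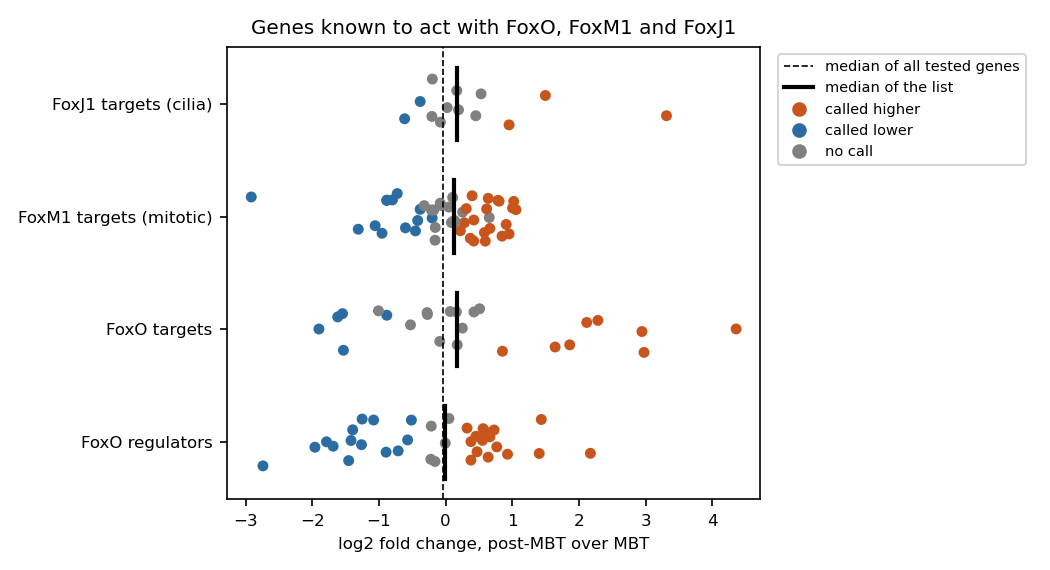
Log2 fold change (post-MBT over MBT) of the tested genes of 4 lists of FoxO, FoxM1 and FoxJ1 partners (orange called higher, blue called lower, grey no call; points are spread up and down only for sight). The list medians (black bars, -0.01 to 0.17) lie near the median of all tested genes (dashed line, -0.04), with genes on both sides in every list.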

How the data were processed

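The authors deposited whole-number counts of alignments per gene and library, a pair being counted once per the file headers, with coordinates of D_rerio_Sep_2014. Novoalign 2.8 and DESeq2 are named in the submitters' processing notes. Per the file headers, the same deposited table gives a log2 ratio that the authors took from DESeq2 and a score that is the negative log10 of the adjusted p times 10. The treatment of reads with several matches is not given in the sources used, and the counts carry no strand. Gene starts count from 0 in the table and are given from 1. Count columns name a stage but no replicate number, so libraries are lettered, and 10 further columns of per-library values were not used. Of the 42 symbols 40 are current RefSeq symbols, and foxd1l and foxk2 are older names (of foxd1 and foxk2a). RefSeq also gives foxd1 as an older name of foxd2, so which gene the rows foxd1 and foxd1l stand for is in doubt; no protein or promoter sequence was used here.

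Counts of all genes were fitted with edgeR 4.0.16 in R 4.3.3, by the quasi-likelihood test with robust dispersions and with stage as the only term, after filterByExpr (minimum count 10) and TMM scaling, and p-values were adjusted over all tested genes by the Benjamini-Hochberg method. The SE is the log2 fold change divided by the square root of the F statistic. A gene could pass the filter through the libraries of a single stage. Among others, for foxn1, foxo1b, foxp4 and birc5b this was the MBT, and for rbl2 and dnai2a post-MBT. In each of these cases it was the stage with the higher level. Fits were tested on simulated data, with changes planted in a small part of the genes and the same dispersion for every gene. In these data most tested genes were called, so that test does not check the scaling or error rates here. Ratios within libraries were compared by exact permutation tests (Python 3.11.15, numpy 2.4.6). Within a stage no pair of libraries was alike to within sampling noise (chi-square of 1.27 to 4.78 per degree of freedom), and each library was 1 replicate. Intervals and floors cover counting error only, since PCR copies are not independent molecules. Alternatives were other scalings and filters, the Wald test of DESeq2 1.42.0, stricter calls and leaving out each library. Every tested forkhead gene is named, and of each partner list the 4 members with the smallest adjusted p and those that fell against a majority of rises, except some counted genes that are not reported here by name; other named genes were chosen after their values were seen. The members and lists were chosen with earlier results of these data known.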

Additional observations from a re-analysis of the deposited data

How the results depend on the processing

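Of the 6 forkhead genes called higher, 5 were called with every other scaling, filter, test or set of libraries that gave them a value (12 alternatives), and foxd3 was not with library totals. Of the 7 called lower, 3 were (foxm1, foxp1a and foxp4). How many of all called genes kept their call, or passed an adjusted p of 0.01, was not counted. The kept calls therefore show no trait of the family. The number lower was 3 with the DESeq2 Wald test, 3 at an adjusted p under 0.01 and 3 at a change of at least 2-fold. On leaving out each MBT library it ranged from 3 to 7, where the number higher ranged from 6 to 7. Over all genes the number lower was 3813 in the main test and 2497 with the DESeq2 Wald test. On leaving out each MBT library it ranged from 3588 to 3743, and the number higher from 3501 to 3647. The number near 0 ranged from 19 to 21 on leaving out each library.

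Among genes without a call the direction of the log2 fold change turned with library totals for foxb1a (-0.086) and foxk1 (-0.29). Leaving out each library gave -1.38 (without post-MBT A) to 1.04 for foxb1a, -0.53 to 0.36 (without post-MBT A) for foxn3, -1.48 to 0.26 (without post-MBT A) for foxo1b and -0.14 to 0.018 (without MBT B) for foxo3a. Without MBT B and without MBT C, foxn3 turned too (0.093 and 0.13). The cause was not tested.

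For the lists, library totals gave 6 FoxO regulators higher and 19 lower, 10 FoxO targets lower, and 6 FoxM1 targets higher and 21 lower. Of all 12007 tested genes, that scaling gave 2173 higher and 5574 lower. A minimum mean of 50 counts, which tests fewer genes, gave 4 of 11 tested FoxO targets higher and 3 lower. Of 3 tested FoxJ1 targets it gave 0 higher (edgeR, 0 also at an unadjusted p under 0.05) and 1 lower. Of all genes that setting tested 6147, with 2174 higher and 2317 lower. With no filter 5 of 47 FoxJ1 targets were higher, where 3937 of all 22656 genes were. With DESeq2 size factors and with upper-quartile factors 1 of 13 FoxJ1 targets was lower, where 3663 and 3624 of all 12007 tested genes were. The DESeq2 Wald test, without the minimum of 50 counts, called 3 of 25 FoxJ1 targets higher and 0 lower (1 at an unadjusted p under 0.05). Of all 15628 genes it tested, 2990 were higher and 2497 lower. Leaving out each library gave 14 to 16 FoxO regulators higher and 11 to 15 lower, 8 FoxO targets higher in each case and 5 to 8 lower, 17 to 20 FoxM1 targets higher and 9 to 14 lower, and 2 to 3 FoxJ1 targets higher and 1 to 2 lower.

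No paired analysis was possible because the count columns carry no replicate number. For the 22 genes that were not tested, low depth and absent RNA cannot be told apart in a library without a count.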
